A study of Mus musculus with 19 samples.

Results

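The 9 genes described here encode proteins that neutrophils load into their secondary (specific) and tertiary (gelatinase) granules, with 1 enzyme of neutrophil chromatin added: Ltf, Ngp, Camp, Lcn2, Mmp8, Chil3, Cd177, Mmp9 and Padi4. They were chosen by name from the 36682 genes of the deposited count and FPKM table, and all 9 were found there. RNA came from pooled L3 to L5 dorsal root ganglia, where the cell bodies of sensory neurons lie, taken from the side of the operated knee. Poly(A) RNA was sequenced in 19 libraries from male mice, 1 library per labelled sample.

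All mice, controls included, were homozygous for the MaFIA (macrophage Fas-induced apoptosis) transgene. In this strain the Csf1r promoter drives an inducible Fas death receptor, which the dimerizing drug AP20187 activates. The mice had either DMM surgery (destabilization of the medial meniscus, which brings on osteoarthritis of the knee) or no surgery, these naive mice being of matched age. They received AP20187 or vehicle into the peritoneum, daily for 5 days, in DMM mice 8 weeks after the operation. There were 5 libraries of DMM mice given AP20187 (numbers 58 to 62), 5 of DMM mice given vehicle (32, 33, 34, 63 and 64), 4 of naive mice given AP20187 (1, 3, 4 and 5) and 5 of naive mice given vehicle (1 to 5). The DMM vehicle numbers fall into 2 series, of which 63 and 64 run on from those of the DMM AP20187 libraries, and the labels do not say whether the series were separate cohorts. The naive libraries of the same number are not the same animal as far as the labels say.

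Neutrophils build their granules in order while they mature in the bone marrow. Primary (azurophil) granule proteins such as myeloperoxidase are made first, in promyelocytes. Specific granule proteins follow in myelocytes and metamyelocytes, and gelatinase granule proteins later still, after which these transcripts decline. The transcription factor C/EBP epsilon is needed for specific granule genes, and PU.1 for the myeloid lineage as a whole. Sensory ganglia are not known as a site where granules are formed.

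Most of these genes were higher with AP20187 in the ganglia of both operated and naive mice, by 4.46 to 21.5 times where the test was passed, and no difference between operated and naive mice passed. Together the 9 genes took 1.73% to 2.92% of all counts in DMM libraries with AP20187 and 0.0389% to 0.798% in DMM libraries with vehicle. In naive mice they took 0.804% to 2.31% with AP20187 and 0.0875% to 0.247% with vehicle. The genes did not rise in proportion. Of the counts of the 9 genes in a library, Mmp8, Camp, Mmp9 and Padi4 took a smaller percentage in every AP20187 library than in any vehicle library of the same state, and Lcn2 a larger one. For Mmp8 it was 1.64% to 2.08% with AP20187 and 6.11% to 7.16% with vehicle in DMM mice.

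The promoters of 5 of the genes are shown because the genes moved together and because C/EBP and PU.1 sites are the best known inputs to them. Of the 9 genes, 8 had an entry in the RefSeq promoter table (build GRCm38.p6), and Mmp9 had none. Each run is the 250 bases before the gene start, 5′ to 3′ on the gene's strand. Capitals mark matches to the C/EBP core TTNNGNAA or the PU.1 core GAGGAA on either strand, so that TTCCTC is a PU.1 match on the opposite strand. No match of one motif overlapped a match of the other.
Ltf (chr9:111019042-111019291, plus strand): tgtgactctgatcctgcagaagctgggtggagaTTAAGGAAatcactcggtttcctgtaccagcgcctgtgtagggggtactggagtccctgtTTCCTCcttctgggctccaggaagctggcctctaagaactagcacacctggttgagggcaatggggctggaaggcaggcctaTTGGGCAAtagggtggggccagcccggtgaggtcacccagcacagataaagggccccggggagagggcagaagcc
Ngp (chr9:110419558-110419807, plus strand): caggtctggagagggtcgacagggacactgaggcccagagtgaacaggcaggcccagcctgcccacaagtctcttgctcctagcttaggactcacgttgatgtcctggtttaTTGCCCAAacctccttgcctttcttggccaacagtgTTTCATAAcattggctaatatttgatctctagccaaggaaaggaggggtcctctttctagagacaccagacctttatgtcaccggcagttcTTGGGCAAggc
Camp (chr9:109849457-109849706, minus strand): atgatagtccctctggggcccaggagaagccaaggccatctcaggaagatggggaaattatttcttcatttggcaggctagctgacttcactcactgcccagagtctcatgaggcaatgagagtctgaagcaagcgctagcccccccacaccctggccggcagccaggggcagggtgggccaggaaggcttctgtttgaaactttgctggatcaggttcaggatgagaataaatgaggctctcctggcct
Lcn2 (chr2:32387740-32387989, minus strand): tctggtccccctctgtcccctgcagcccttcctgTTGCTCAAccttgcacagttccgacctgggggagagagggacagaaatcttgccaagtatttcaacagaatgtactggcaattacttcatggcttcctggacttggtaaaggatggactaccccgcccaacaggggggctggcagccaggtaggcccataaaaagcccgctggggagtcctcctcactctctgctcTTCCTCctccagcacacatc
Mmp8 (chr9:7558179-7558428, plus strand): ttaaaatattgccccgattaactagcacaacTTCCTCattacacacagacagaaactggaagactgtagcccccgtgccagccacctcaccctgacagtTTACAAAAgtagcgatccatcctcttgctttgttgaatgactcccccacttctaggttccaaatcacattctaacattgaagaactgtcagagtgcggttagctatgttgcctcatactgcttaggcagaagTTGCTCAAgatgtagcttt
The C/EBP core was present in 6 of the 8 promoters, against 36.8% of 32851 promoters of the same length in the table. The PU.1 core was present in 4 of the 8, against 23.3% of all. Ngp carried 3 C/EBP matches and no PU.1 match. Ltf carried 2 C/EBP matches and 1 PU.1 match, as did Mmp8, and Lcn2 carried 1 of each. Chil3 had 3 C/EBP matches and no PU.1 match, Cd177 had 1 of each, and Camp and Padi4 had neither in this window. These are matches of letters and were not tested as binding sites.

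Values below are CPM, counts divided by the TMM-adjusted depth of each library, given in the order of the library numbers. Differences are log2 fold changes with their standard errors from edgeR's quasi-likelihood test, with p adjusted over all 22778 genes tested. All 9 genes passed the filter on low counts in that table. Levels are compared between genes only in FPKM, which divides by gene length. In bulk ganglia, more cells of a type and more RNA per cell cannot be told apart.

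**Figure D1:**
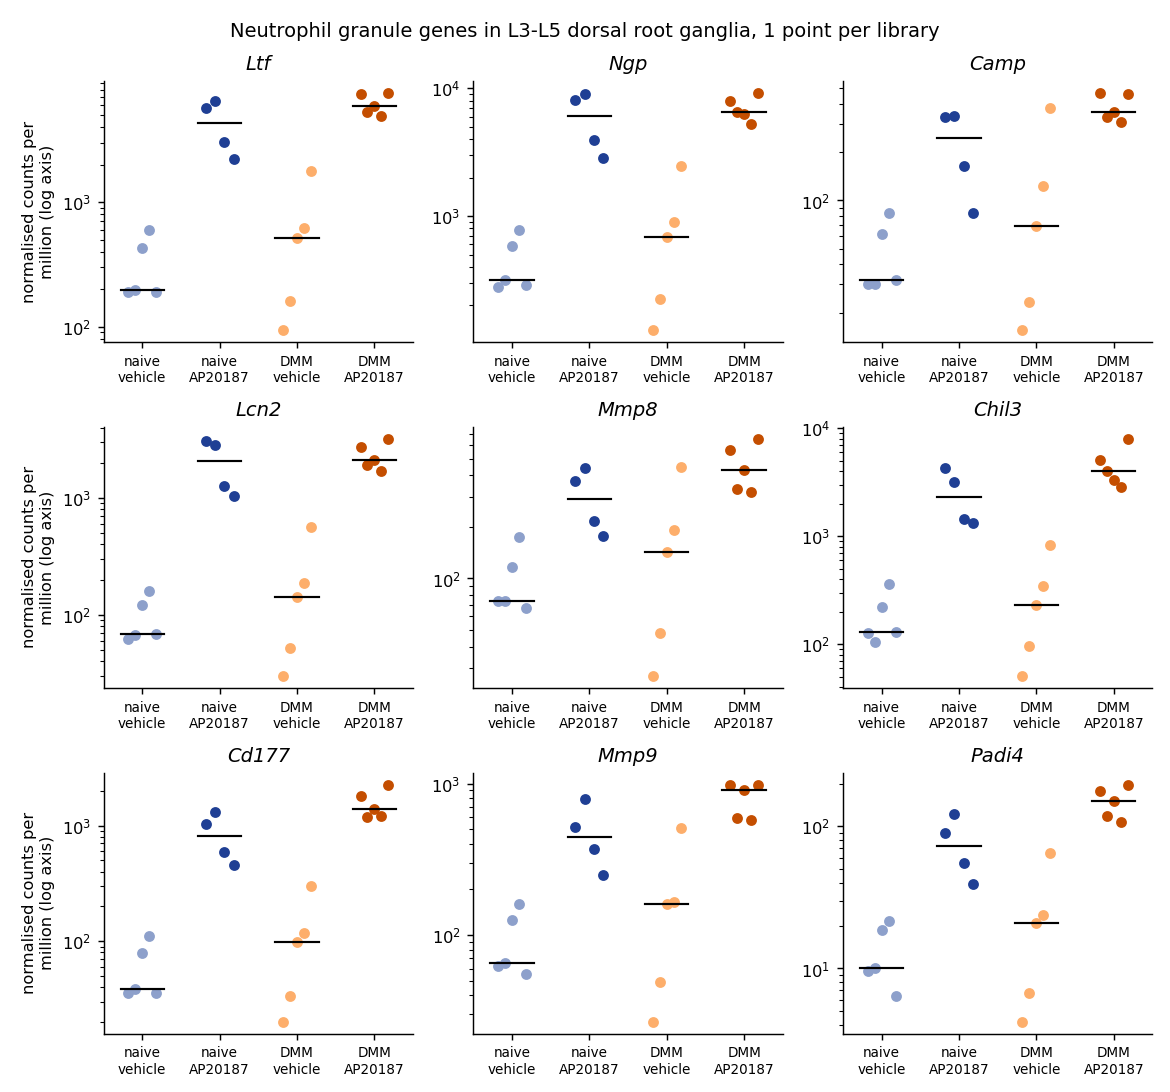
CPM (log axis) of each of the 9 genes in the 19 libraries, by group, with 1 point per library and the group median as a bar. Points of the AP20187 groups sit above those of the vehicle groups in most panels, while for Mmp8 and Camp the highest DMM vehicle library lies among the DMM AP20187 points.

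Ltf (ENSMUSG00000032496, chromosome 9, 110848339 to 110871835, plus strand in the table) encodes lactoferrin, the iron-binding protein of specific granules. In DMM mice its level was 7435, 5280.1, 5962, 4896 and 7532 CPM with AP20187, and 93.4, 160.4, 513, 615 and 1766 CPM with vehicle. In naive mice it was 5648, 6456, 3055 and 2216 CPM with AP20187, and 189.9, 197, 424, 599.9 and 188 CPM with vehicle. Every AP20187 library stood above every vehicle library of the same surgery state. Ltf rose by 3.30 ± 0.63 (log2, SE) in DMM mice, or 9.88-fold (edgeR adjusted p = 0.00184, n = 5 and 5), and by 3.76 ± 0.65 in naive mice, or 13.6-fold (edgeR adjusted p = 0.00200, n = 4 and 5).

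Ngp (ENSMUSG00000032484, chromosome 9, 110248815 to 110252080, plus strand) encodes neutrophilic granule protein, a relative of the cathelicidins. It was the most abundant of the 9 per gene length in every library. With AP20187 it stood at 7890.3, 6534, 6260.1, 5222 and 9191 CPM in DMM mice, against 128, 223, 688, 899 and 2469 CPM with vehicle. The naive values were 8154, 8962, 3948 and 2824 CPM with AP20187 and 277, 315, 579, 784 and 291 CPM with vehicle. The groups did not overlap in either state. Ngp rose by 2.99 ± 0.62 in DMM mice (edgeR adjusted p = 0.00317) and by 3.73 ± 0.65 in naive mice (edgeR adjusted p = 0.00204).

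Camp (ENSMUSG00000038357, chromosome 9, 109676447 to 109678685, minus strand) encodes the precursor of the antimicrobial peptide CRAMP, the mouse cathelicidin. In DMM mice Camp was at 469, 334, 359, 310.4 and 464 CPM with AP20187 and at 15.5, 23.3, 69.3, 124 and 379.8 CPM with vehicle. DMM vehicle 64 lay among the AP20187 libraries, so the groups overlapped. The difference of 1.66 ± 0.64 did not pass (edgeR adjusted p = 0.0659), and without DMM vehicle 64 it was 2.74 (edgeR adjusted p = 0.00186). In naive mice Camp was at 329.7, 335, 164 and 83.0 CPM with AP20187 and at 30.1, 30.3, 61.7, 83.2 and 31.9 CPM with vehicle. Naive AP20187 5 fell just under naive vehicle 4. The rise of 2.27 ± 0.68 passed (edgeR adjusted p = 0.0376) and was lost without any 1 of naive AP20187 1 or 3 or naive vehicle 1, 2, 3 or 5 (edgeR adjusted p = 0.0514 to 0.117). It was also lost with no filter on low counts (edgeR adjusted p = 0.0593) and on the FPKM scales (limma adjusted p = 0.0518 and 0.0506).

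Lcn2 (ENSMUSG00000026822, chromosome 2, 32274645 to 32277809, minus strand) encodes lipocalin 2, which binds bacterial siderophores. Its DMM values were 2763, 1914, 2128, 1712 and 3226 CPM with AP20187 and 29.8, 51.9, 142, 187 and 565 CPM with vehicle. Its naive values were 3070.0, 2863, 1262 and 1050.3 CPM with AP20187 and 62.5, 67.0, 121, 160.1 and 68.1 CPM with vehicle. The ranges were far apart in both states. Lcn2 rose by 3.59 ± 0.63 in DMM mice, 12.0-fold (edgeR adjusted p = 0.00107), and by 4.43 ± 0.66 in naive mice, 21.5-fold, the largest change among the 9 in naive mice (edgeR adjusted p = 7.10e-04).

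Mmp8 (ENSMUSG00000005800, chromosome 9, 7558457 to 7568486, plus strand) encodes neutrophil collagenase. With AP20187 it was at 564, 334, 431, 319 and 656 CPM in DMM mice, and with vehicle at 26.9, 48.2, 143, 191 and 447 CPM. As for Camp, DMM vehicle 64 reached the AP20187 range. The difference of 1.43 ± 0.54 did not pass (edgeR adjusted p = 0.0622), and without that library it was 2.17 (edgeR adjusted p = 0.00364). In naive mice Mmp8 was at 369.6, 443, 216 and 176 CPM with AP20187 and at 74.2, 73.9, 117, 175 and 67.1 CPM with vehicle. The naive groups touched without overlapping, and 1.57 ± 0.57 did not pass either (edgeR adjusted p = 0.0794). At a like fold, of 1.51 to 1.62 on the log2 scale, it passed under 9 alternatives, among them DESeq2 (adjusted p = 0.0311), voom (0.0246), edgeR with only the 2 groups compared (0.0157) and edgeR without DMM vehicle 32 or 64 (0.0312 and 0.0316). Among the 9 genes Mmp8 had the smallest fold in both states.

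Chil3 (ENSMUSG00000040809, chromosome 3, 106054870 to 106074880, minus strand) encodes the chitinase-like protein Ym1, made by mouse neutrophil precursors and also by alternatively activated macrophages. Its DMM values were 5045, 4047, 3306, 2823 and 7966 CPM with AP20187 and 51.0, 96.1, 229.9, 348 and 821 CPM with vehicle. Its naive values were 4281, 3158, 1456 and 1323 CPM with AP20187 and 128, 106, 224, 361 and 129.5 CPM with vehicle. No vehicle library reached an AP20187 library. Chil3 rose by 3.91 ± 0.65 in DMM mice, 15.0-fold, the largest change among the 9 there (edgeR adjusted p = 7.17e-04), and by 3.75 ± 0.65 in naive mice (edgeR adjusted p = 0.00205). Its near-identical neighbour Chil4 can share reads with it, so the split between them is uncertain. Chil4 held at most 19.2 counts per 10000 counts of Chil3 in any library.

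Cd177 (ENSMUSG00000052212, chromosome 7, 24443408 to 24459736, minus strand) encodes a surface glycoprotein that neutrophils also store in specific granules. It stood at 1812, 1193, 1386, 1213 and 2263 CPM in DMM mice with AP20187 and at 20.1, 33.9, 98.7, 117 and 299 CPM with vehicle. In naive mice it was at 1036, 1297, 591 and 454 CPM with AP20187 and at 35.5, 38.8, 79.1, 110.1 and 35.5 CPM with vehicle. The groups were well apart. Cd177 rose by 3.79 ± 0.61 in DMM mice (13.8-fold, edgeR adjusted p = 5.54e-04) and by 3.82 ± 0.62 in naive mice (14.1-fold, edgeR adjusted p = 0.00124).

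Mmp9 (ENSMUSG00000017737, chromosome 2, 164782700 to 164797770, plus strand), the gelatinase that names the tertiary granule, was at 985, 594, 907, 578 and 983 CPM in DMM mice with AP20187. With vehicle it was at 26.7, 48.6, 160.3, 166 and 505 CPM. The naive values were 517, 790.5, 367 and 248 CPM with AP20187 and 62.4, 65.4, 126, 161 and 55.3 CPM with vehicle. DMM vehicle 64 came close to the lowest AP20187 libraries without reaching them. Mmp9 rose by 2.16 ± 0.58 in DMM mice (4.46-fold, edgeR adjusted p = 0.0144) and by 2.35 ± 0.61 in naive mice (5.11-fold, edgeR adjusted p = 0.0194). The naive call was lost without naive AP20187 3, naive vehicle 1 or naive vehicle 2 (edgeR adjusted p = 0.0539 to 0.0763).

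Padi4 (ENSMUSG00000025330, chromosome 4, 140473176 to 140501547, minus strand) encodes the peptidylarginine deiminase that citrullinates histones when neutrophils release their chromatin as extracellular traps, and is not itself a granule protein. It was the least abundant of the 9 per gene length in every library. Its DMM values were 177, 119, 152, 108 and 197 CPM with AP20187 and 4.21, 6.69, 20.9, 23.7 and 64.9 CPM with vehicle. Its naive values were 89.7, 122, 54.8 and 39.6 CPM with AP20187 and 9.55, 10.1, 18.7, 21.7 and 6.36 CPM with vehicle. The groups did not overlap. Padi4 rose by 2.64 ± 0.57 in DMM mice (6.25-fold, edgeR adjusted p = 0.00424) and by 2.52 ± 0.59 in naive mice (5.75-fold, edgeR adjusted p = 0.0112).

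Counted together, 7 of the 9 genes were higher with AP20187 in DMM mice, where 11.3% of all genes tested were called higher, and the same 7 had AP20187 libraries wholly above vehicle libraries, as had 8.71% of all genes. In naive mice 8 of the 9 were called higher, against 8.61% of all genes. There too 8 had ranges that did not overlap, against 9.39% of all genes, with Camp called but overlapping and Mmp8 not overlapping but not called. None of the 9 was lower in either state. The median log2 fold change over the 9 was 2.99 in DMM mice, where that over all genes was −0.10, and 3.73 in naive mice, where that over all genes was −0.07. When only DMM vehicle 63 and 64 were used as controls, 4 of the 9 passed in DMM mice, where 2.71% of 24459 genes were called higher, with Ngp at 2.05 (edgeR adjusted p = 0.0503), Padi4 at 1.76 (edgeR adjusted p = 0.0758) and Mmp9 at 1.26 (edgeR adjusted p = 0.203) no longer called. Each of these differences in DMM mice was larger without DMM vehicle 64: the log2 values were then 4.17 for Ltf, 3.86 for Ngp, 4.51 for Lcn2, 4.68 for Chil3, 4.54 for Cd177, 3.01 for Mmp9 and 3.44 for Padi4, and 9 of 9 passed. That library was the highest control for all 9 genes, so the folds had to rise without it. Without DMM vehicle 32, the lowest control, the log2 values fell to 3.03 for Ltf, 2.71 for Ngp, 1.38 for Camp and 3.31 for Lcn2. They were then 1.15 for Mmp8, 3.51 for Cd177, 1.88 for Mmp9 and 2.37 for Padi4. Chil3 was lowest, at 3.62, without DMM AP20187 62.

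**Figure D2:**
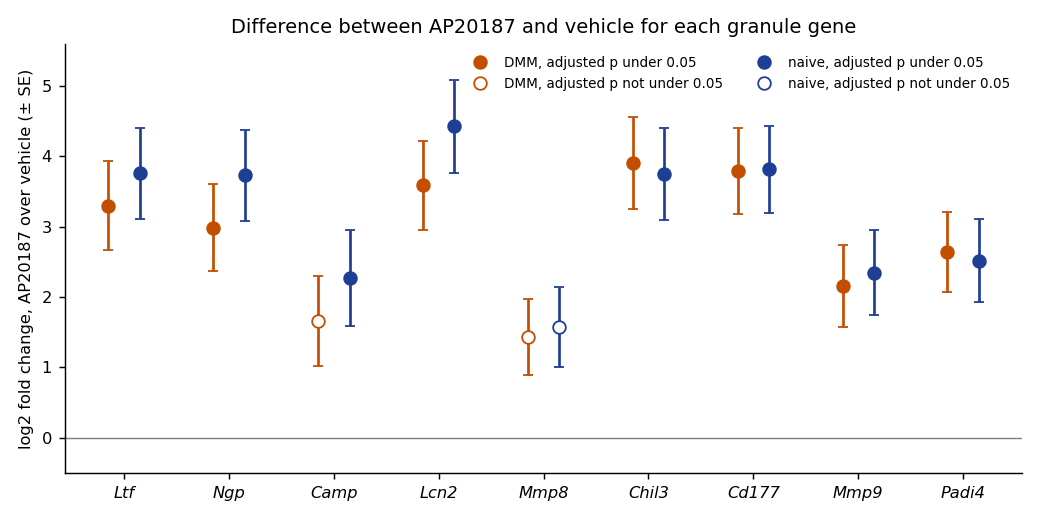
Log2 fold change of AP20187 over vehicle (points) with its standard error (bars) for the 9 genes, in DMM mice (orange) and naive mice (blue), with open points where the edgeR adjusted p was not under 0.05. All points lie above 0, from 1.43 for Mmp8 in DMM mice to 4.43 for Lcn2 in naive mice, and Camp in DMM mice and Mmp8 in both states are open.

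Surgery was compared in mice with the same injection. With vehicle, all 9 genes had a higher mean in DMM than in naive mice, with log2 differences of 0.71 for Chil3 to 1.37 for Camp, but 0 of 9 passed (edgeR adjusted p = 1.00 for each) and the ranges overlapped for all 9. Of the 9 unadjusted p, 1 was under 0.05, that of Camp (0.0451). No gene of all tested was called in this contrast by edgeR (0% of 22778, with 377 at an unadjusted p under 0.05), and DESeq2 and limma voom called 1 gene each. The direction rested on the DMM vehicle libraries used: with numbers 32 to 34 alone the 9 differences were −0.59 to −0.23, and with 63 and 64 alone 6 of the 9 passed (edgeR adjusted p = 0.0485 to 0.0491), where 1.77% of 24459 genes were called higher.

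With AP20187 the DMM means were again above the naive means for all 9 genes, by 0.19 for Lcn2 to 0.98 for Padi4 on the log2 scale. None of the 9 passed (edgeR adjusted p = 0.405 to 0.907), where 0.702% of all genes were called. The differences for Ngp and Lcn2 turned slightly the other way, to −0.02 and −0.05, without naive AP20187 5, which held the lowest level of all 9 genes in its group. The AP20187 effect in DMM mice minus that in naive mice lay between −0.84 for Lcn2 and 0.16 for Chil3. Its test called 0 of the 9 (edgeR adjusted p = 0.913 to 1.00), where 0.114% of all genes were called, and its sign changed with the setting for each of the 9. The standard errors of these 9 values were 0.77 to 0.91 on the log2 scale.

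The libraries kept nearly the same order from gene to gene. Among DMM vehicle libraries, number 64 was the highest and number 32 the lowest for 9 of 9 genes, and the highest exceeded the lowest by 14.9 times (Cd177) to 24.5 times (Camp). Naive vehicle 4 was the highest of its group for all 9, and naive AP20187 5 the lowest of its group for all 9. With AP20187 the highest DMM library exceeded the lowest by 1.51 times (Camp) to 2.82 times (Chil3). In naive mice the highest library exceeded the lowest by 2.52 times (Mmp8) to 4.04 times (Camp) with AP20187 and 2.56 times (Lcn2) to 3.41 times (Padi4) with vehicle. Pearson correlations of log2 CPM between the members, given as a description since the libraries share their depth and scaling, had a median of 0.98 over 36 pairs and 19 libraries. The lowest was 0.92, for Lcn2 and Mmp8. Within the 10 vehicle libraries the median was 0.99, and within the 9 AP20187 libraries 0.93, the lowest being 0.82 for Lcn2 and Padi4.

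DMM vehicle 64 differed from the other vehicle libraries in markers of other cells as well. Over 7 erythroid genes the summed level was 21110.3 CPM there, the highest of its group, whose lowest was 1267 CPM, and over 9 osteoclast and bone genes it was 170.1 CPM, against 20.6 CPM at the lowest. It was also the highest of its group for the megakaryocyte list, at 178 CPM, and the lowest for the sensory neuron list, at 3748 CPM. The macrophage list (664 CPM) and the eosinophil and mast cell list (221 CPM) were highest there too. So were the endothelial list (105 CPM) and the satellite glia and Schwann cell list (5600.3 CPM). The early B lineage list was at its lowest there, at 131 CPM. The part of these cells in its granule gene levels was not tested.

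The ratios between the 9 genes within a library do not depend on how libraries are scaled. Each gene's count was divided by the geometric mean of the other 8 in the same library. The 9 values of a library are therefore tied. A fall of any gene raises the values of the others, so they are not 9 separate results. This measure and the pairs below were chosen after the values had been seen, so they are given as a description with no test. For all 9 genes the AP20187 libraries and the vehicle libraries did not overlap, in DMM or in naive mice, though for Padi4 in DMM mice they nearly touched (−3.62 to −3.43 against −3.41 to −3.16). Mmp8 moved the most: its log2 ratio to the other 8 was −1.95 to −1.67 in DMM mice with AP20187 and −0.28 to −0.03 with vehicle, a 3.15-fold difference of means, and −1.84 to −1.47 against −0.14 to 0.22 in naive mice. Camp was lower by 2.07 times in both states, Mmp9 by 1.68 and 1.82 times and Padi4 by 1.21 and 1.58 times (DMM, then naive). Lcn2 was higher by 1.85 and 2.65 times, Cd177 by 1.96 and 1.78 times and Chil3 by 2.10 and 1.60 times. For Ltf the ratio was higher by 1.49 and 1.70 times, and for Ngp by 1.17 and 1.57 times. A ratio to the geometric mean is not a share of the counts, of which Ngp took less with AP20187 in DMM mice (28.3% to 32.1% of the 9 genes' counts, against 32.2% to 33.7%) and an overlapping part in naive mice. The shares of Ltf overlapped between injections in both states, and those of Chil3 and Cd177 were larger with AP20187 in DMM mice and overlapped in naive mice.

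**Figure D3:**
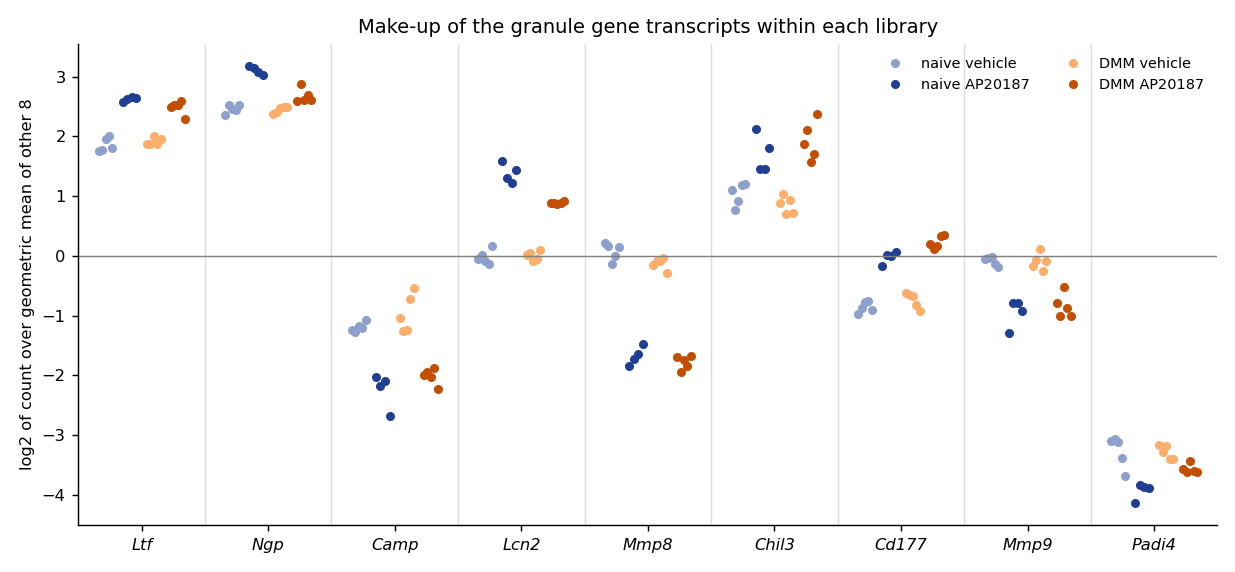
Log2 of each gene's count over the geometric mean of the other 8 genes in the same library, for the 19 libraries by group. AP20187 libraries (dark points) lie above the vehicle libraries (pale points) of the same state for Ltf, Ngp, Lcn2, Chil3 and Cd177 and below them for Camp, Mmp8, Mmp9 and Padi4, and the largest step is that of Mmp8.

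Single pairs show the same in counts. Per 100 counts of Cd177 there were 26.3 to 31.1 counts of Mmp8 in DMM mice with AP20187 and 134 to 163 with vehicle. In naive mice the figures were 34.2 to 38.7 with AP20187 and 148 to 209 with vehicle. DMM vehicle 64, whose Mmp8 level was as high as that of AP20187 libraries, had 149.7 and so stood with the vehicle libraries. Per 100 counts of Mmp8 there were 490.3 to 573 counts of Lcn2 in DMM mice with AP20187 and 98.0 to 126 with vehicle, and 584 to 831 against 84.2 to 103 in naive mice. The 2 cathelicidin relatives also parted. Camp per 100 counts of Ngp was 5.04 to 5.94 in DMM mice with AP20187 and 10.1 to 15.4 with vehicle, and 2.94 to 4.17 against 9.61 to 11.0 in naive mice.

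The ranking per gene length changed accordingly. By mean FPKM, Ngp, Chil3 and Ltf were at ranks 1, 2 and 3 in every group, at 5559, 2720.5 and 1751 FPKM in DMM mice with AP20187 and at 742, 194 and 188 FPKM with vehicle. Cd177 was 5th in DMM mice with AP20187, at 534 ± 133 FPKM (SD, n = 5), and 8th with vehicle, at 41.1 ± 41.9 FPKM. Mmp8 was 8th with AP20187, at 184 ± 52.9 FPKM, and 6th with vehicle, at 72.4 ± 74.0 FPKM. Padi4, at the bottom, averaged 30.2 ± 6.94 FPKM with AP20187 and 5.12 ± 5.39 FPKM with vehicle in DMM mice. Some neighbours in this order were close, such as Lcn2 (76.7 ± 88.2 FPKM) and Mmp8 with vehicle in DMM mice. Lcn2 was at 10.9 and Mmp8 at 10.6 FPKM in DMM vehicle 32, and at 69.8 and 77.0 FPKM in DMM vehicle 63. The SD is the spread between libraries, and differences between genes within libraries were not tested.

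The granule genes were also set against genes of mature neutrophils. Of 9 mature neutrophil genes, 6 rose with AP20187 in DMM mice, where 11.3% of all genes were called higher, and 6 in naive mice, where 8.61% were. Among the largest in DMM mice were Il1r2, a decoy receptor for interleukin 1 (4.57), and the calprotectin subunits S100a8 (3.02) and S100a9 (2.95), all log2. Ly6g, the surface marker by which mouse neutrophils are commonly sorted, was named after its values were seen: it stood at 16.4, 9.52, 13.2, 12.2 and 15.9 CPM in DMM mice with AP20187 and at 2.22, 4.06, 11.8, 14.4 and 44.6 CPM with vehicle. Its difference was −0.20 ± 0.59 in DMM mice (edgeR adjusted p = 0.847) and 0.57 ± 0.62 in naive mice (edgeR adjusted p = 0.553). The other 2 of these genes that passed in neither state were Retnlg (−0.13 and 0.78) and the G-CSF receptor gene Csf3r (1.31 and 1.45). These DMM values rested on DMM vehicle 64, without which they were 0.73 for Ly6g (edgeR adjusted p = 0.290), 0.96 for Retnlg (0.121) and 2.11 for Csf3r, which then passed (0.00407), while Il1r2 was at 5.36, S100a8 at 4.06 and S100a9 at 3.91. Csf3, which encodes the cytokine G-CSF and had been put on the same list without being a neutrophil marker, had 0 counts in all 10 vehicle libraries and was found in 3 of 5 DMM and 3 of 4 naive libraries with AP20187, at up to 27 counts, which makes it at least 4.35-fold and at least 3.10-fold higher against a floor of 3 counts per library (edgeR adjusted p = 0.0338 and 0.0704). The DMM call of Csf3 was lost without any 1 of 6 libraries (edgeR adjusted p = 0.0524 to 0.0643). With Csf3 the list held 10 genes. Over all libraries left out in turn, 5 to 8 of these were higher in DMM mice and 6 to 7 in naive mice.

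Set against Ly6g, the granule transcripts took 2 separate levels. For each count of Ly6g there were 55.0 to 62.5 counts of Ngp in DMM vehicle libraries and 53.1 to 67.7 in naive vehicle libraries, including DMM vehicle 64 at 55.3. With AP20187 there were 429 to 686 in DMM mice and 485 to 842 in naive mice. For Mmp8, which had the smallest fold of the 9, the counts per count of Ly6g averaged 11.9 ± 1.17 (SD, n = 5) with vehicle and 33.9 ± 5.36 (n = 5) with AP20187 in DMM mice. In naive mice they averaged 14.3 ± 0.335 (n = 5) with vehicle and 33.4 ± 12.9 (n = 4) with AP20187. S100a8 per 100 counts of Ngp was 15.4 to 17.1 in DMM mice with AP20187 and 12.4 to 17.2 with vehicle, which overlapped. In naive mice it was 25.9, 23.0, 23.1 and 11.5 with AP20187 and 10.3 to 16.5 with vehicle, so that 3 of 4 AP20187 libraries lay above every vehicle library.

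**Figure D4:**
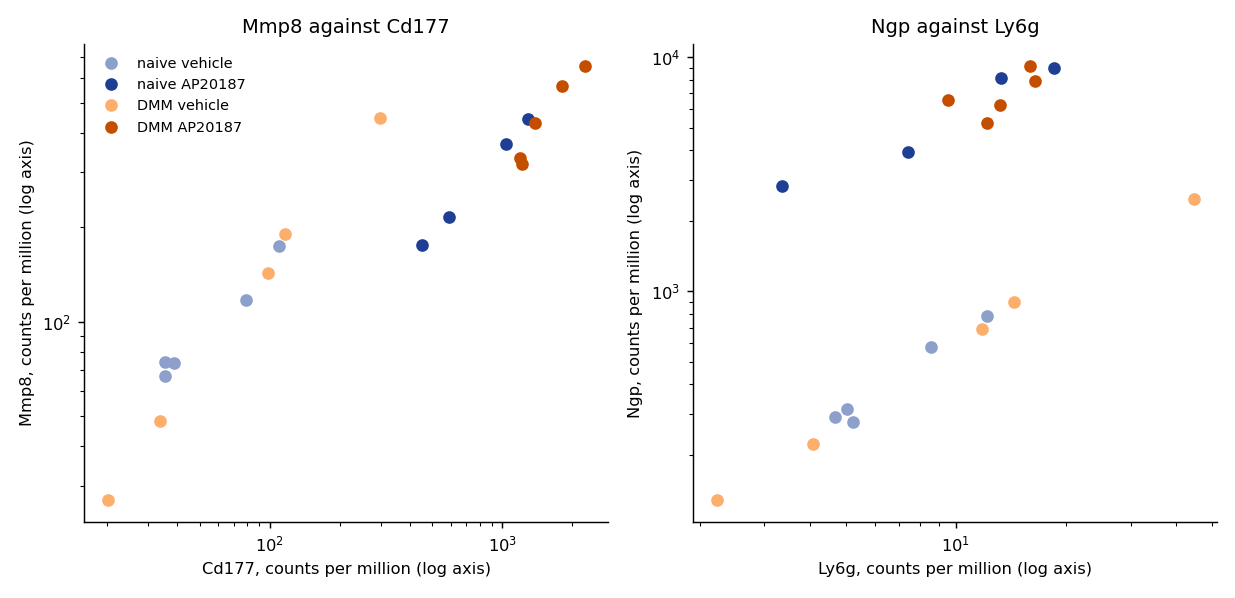
Mmp8 against Cd177 (left) and Ngp against Ly6g (right), in CPM on log axes, 1 point per library. Vehicle libraries of both states, DMM vehicle 64 included, fall along 1 line and AP20187 libraries along another in each panel: at 134 to 209 against 26.3 to 38.7 counts of Mmp8 per 100 counts of Cd177, and at 53.1 to 67.7 against 429 to 842 counts of Ngp per count of Ly6g.

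Most of the other granule genes rose as well. Of 20 further specific and gelatinase granule genes, 17 were higher with AP20187 in DMM mice, where 11.3% of all genes were, and 17 in naive mice, where 8.61% were. None was lower, and their median log2 differences were 2.50 and 2.65. The largest in DMM mice were Lrg1, a leucine-rich glycoprotein of neutrophil granules (4.72 ± 0.59), the adhesion molecule Ceacam1 (3.23 ± 0.48), haptoglobin Hp (3.17 ± 0.61) and the peptidoglycan-binding protein Pglyrp1 (3.12 ± 0.66). The 3 that passed in neither state were Slpi, a protease inhibitor (0.73 and 1.41), lysozyme Lyz2 (1.12 and 1.72), which macrophages also make, and the pentraxin Ptx3 (0.67 and 2.17). All 7 primary granule genes measured were higher in both states, with medians of 3.65 and 3.57. The proteases Ctsg (4.15 ± 0.69), Prss57 (3.96 ± 0.68), Prtn3 (3.92 ± 0.73) and Elane (3.65 ± 0.74) led in DMM mice. Without DMM vehicle 64, Lrg1 was at 5.43, Hp at 4.13, Pglyrp1 at 4.20, Ctsg at 5.01, Prss57 at 4.73, Prtn3 at 5.03 and Elane at 4.80, and Slpi (1.87, edgeR adjusted p = 0.00662) and Lyz2 (1.93, edgeR adjusted p = 0.00481) passed. Over all libraries left out in turn, 16 to 19 of the 20 were called higher in DMM mice and 13 to 20 in naive mice, and 7 of 7 primary granule genes in both. Mpo, of the primary granule, was at 10.3 to 15.5 counts per 100 counts of Ngp in DMM mice with AP20187 and at 5.65 to 10.7 with vehicle, and the naive ranges, 4.18 to 10.2 and 6.55 to 11.2, also overlapped.

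Of 8 granulopoietic transcription factor genes, 3 were higher and 1 lower in DMM mice, where 11.3% of all genes were called higher and 12.4% lower. In naive mice 5 were higher, where 8.61% of all genes were. Over all libraries left out in turn, 3 to 5 were higher in DMM mice and 3 to 5 in naive mice. Gfi1, a repressor needed for granulocyte formation, rose by 3.20 ± 0.66 in DMM mice (edgeR adjusted p = 0.00327). Cebpe, which encodes C/EBP epsilon, was at 85.1, 63.1, 68.1, 64.0 and 137 CPM in DMM mice with AP20187 and at 1.09, 1.98, 7.08, 9.04 and 32.7 CPM with vehicle. It rose by 3.01 ± 0.67 in DMM mice (edgeR adjusted p = 0.00475) and by 3.12 ± 0.69 in naive mice (edgeR adjusted p = 0.00830). Spi1, which encodes PU.1, rose by 2.60 ± 0.58 and 2.56 ± 0.60 (edgeR adjusted p = 0.00501 and 0.0113). Lef1 fell by 1.34 in DMM mice and rose by 0.95 in naive mice (edgeR adjusted p = 0.00164 and 0.0242), and the effects differed by −2.29 ± 0.36 (edgeR adjusted p = 0.00888). In DMM mice without DMM vehicle 64, Gfi1 was at 3.88, Cebpe at 4.12 and Spi1 at 3.48, and the naive call of Lef1 was lost without naive AP20187 3, naive vehicle 1 or naive vehicle 2 (edgeR adjusted p = 0.0578 to 0.0641).

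Partners and relatives of single members moved in different directions. Timp1, an inhibitor of MMP9 and other metalloproteinases, rose by 2.18 ± 0.52 in DMM mice and 2.61 ± 0.54 in naive mice (edgeR adjusted p = 0.00708 and 0.00577). The membrane-anchored inhibitor Reck rose by 1.40 ± 0.28 and 0.95 ± 0.29 (edgeR adjusted p = 0.00281 and 0.0436). Timp2 fell by 0.69 in DMM mice (edgeR adjusted p = 0.0156) and was at −0.08 in naive mice, and Timp3 (−0.22 and 0.05) and Timp4 (−0.20 and 0.24) passed in neither. Slc22a17, which encodes a receptor for lipocalin 2, fell by 1.33 in DMM mice and by 0.94 in naive mice (edgeR adjusted p = 0.00123 and 0.0230), while the other receptor gene, Lrp2 (−0.88 and −1.34), passed in neither. The naive calls of Reck and Slc22a17 were lost without any 1 of 11 and 5 libraries (edgeR adjusted p = 0.0506 to 0.143 and 0.0513 to 0.107).

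Among the peptidylarginine deiminases, Padi2 fell by 0.90 in DMM mice (edgeR adjusted p = 0.0268, and 0.0521 to 0.0635 without any 1 of 5 libraries) and was at 0.00 in naive mice, and Padi1 (−0.72 and 1.00) passed in neither. Padi3 had 0 counts in all vehicle libraries and 5 to 41 counts in each AP20187 library, so that it was at least 8.22-fold higher in DMM mice and at least 8.68-fold higher in naive mice against the floor of 3 counts per library. Padi6 was not above 3 counts in any library. Of the chitinase-like genes other than Chil3, Chil1 rose by 2.74 ± 0.53 and 3.49 ± 0.56 and Chit1 by 1.77 ± 0.42 and 1.43 ± 0.43 (edgeR adjusted p = 0.00206, 0.00111, 0.00680 and 0.0405). Chil4 rose by 5.56 ± 1.28 and 4.50 ± 1.34 (edgeR adjusted p = 0.00584 and 0.0372) at mean levels of 4.18 CPM and 0.689 CPM with AP20187, and Chia1 (−0.60 and −0.48) passed in neither. Library DMM AP20187 62 carried much of the DMM value of Chil4, which was 3.98 (edgeR adjusted p = 0.0346) at a mean of 1.40 CPM without it. The naive calls of Chil4 and Chit1 were each lost without any 1 of 6 libraries (edgeR adjusted p = 0.0614 to 0.116 and 0.0701 to 0.163), and Chil1 was at 3.44 in DMM mice without DMM vehicle 64.

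Because macrophages can also express Chil3 and Lyz2, and because AP20187 is given to remove macrophages, macrophage markers were set beside the granule genes. Of 11 macrophage genes, 1 was higher in DMM mice (Mrc1, 1.45), where 11.3% of all genes were, and 3 in naive mice (Cd68, 1.98, C1qb, 1.87, and Fcgr1, 2.00), where 8.61% were, and none was lower. Over all libraries left out in turn these counts ran from 0 to 6 in DMM mice and from 0 to 7 in naive mice. Csf1r itself was at −0.02 in DMM mice, or 0.44 without DMM vehicle 64 (edgeR adjusted p = 0.480), and at 0.45 in naive mice. The summed level of the 11 was 265 to 1066 CPM in DMM mice with AP20187 and 189.7 to 664 CPM with vehicle, and 496 to 829 CPM against 107 to 531 CPM in naive mice. Of 6 genes of alternatively activated macrophages, 1 was higher and 2 were lower in DMM mice, where 12.4% of all genes were called lower. In naive mice 1 was higher, at 2.14 (edgeR adjusted p = 0.00731), a gene of the list not named here, and none was lower. Mrc1 rose in DMM mice, and Cd163 (1.12 and 0.75) and Clec10a (0.63 and 0.77) passed in neither. Retnla and Ccl24 had 0 counts in all 5 DMM libraries with AP20187, which makes them at least 25.7-fold and at least 19.1-fold lower than with vehicle, or at least 14.6-fold and at least 9.94-fold without DMM vehicle 64, whereas Chil3 was 15.0-fold higher in the same libraries. In naive mice they were at −2.51 and −1.17 and passed in neither case.

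Markers of other cells that a dissected ganglion could carry moved in several ways with AP20187. Of all genes tested, 12.4% were called lower and 11.3% higher in DMM mice, and 2.57% lower and 8.61% higher in naive mice. Erythroid genes were lower for 3 of 7 in DMM mice and 0 of 7 in naive mice, with summed levels of 1034 to 4253 CPM against 1267 to 21110.3 CPM and 1561 to 3204 CPM against 2643 to 10579 CPM. Early B lineage genes were lower for 5 of 7 and 4 of 7. Osteoclast and bone genes passed for 0 of 7 tested in both states, megakaryocyte genes rose for 1 of 5 (Itga2b) and 0 of 5, eosinophil and mast cell genes for 1 of 5 (Epx) and 5 of 5 (Epx, Prg2, Prg3, Cpa3 and Mcpt8), and endothelial genes for 1 of 4 (Pecam1) and 0 of 4. Sensory neuron genes were lower for 4 of 7 in DMM mice and 0 of 7 in naive mice, with sums of 1368 to 4511 CPM against 3748 to 8642 CPM and of 1519 to 6739.6 CPM against 5328 to 9575 CPM, so that the ganglion's own markers were present throughout. Skeletal muscle genes, which summed to 9.93 to 383 CPM in naive vehicle libraries, summed to 1385 to 2101 CPM in the 4 naive AP20187 libraries, and 1 of 4 rose (Tnnt3). In DMM mice the muscle sums were 13.1 to 114 CPM with AP20187 and 11.4 to 1593 CPM with vehicle, and Acta1 (−2.94), Ckm (−2.92), Myh4 (−3.41) and Tnnt3 (−2.62) did not pass (edgeR adjusted p = 0.0544 to 0.0710). With each library left out in turn, the calls in DMM mice ran from 0 to 5 for erythroid, 4 to 5 for early B lineage, 3 to 6 for sensory neuron, 1 to 4 for megakaryocyte, 0 to 4 for eosinophil and mast cell and 0 to 4 for muscle genes. The calls there ran from 0 to 2 for endothelial and 0 to 1 for osteoclast and bone genes. In naive mice they ran from 3 to 4 for early B lineage, 1 to 5 for eosinophil and mast cell, 0 to 4 for endothelial and 0 to 4 for muscle genes. For megakaryocyte and for sensory neuron genes they ran from 0 to 2 in naive mice. The part of these cells in the granule gene differences was not tested.

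**Figure D5:**
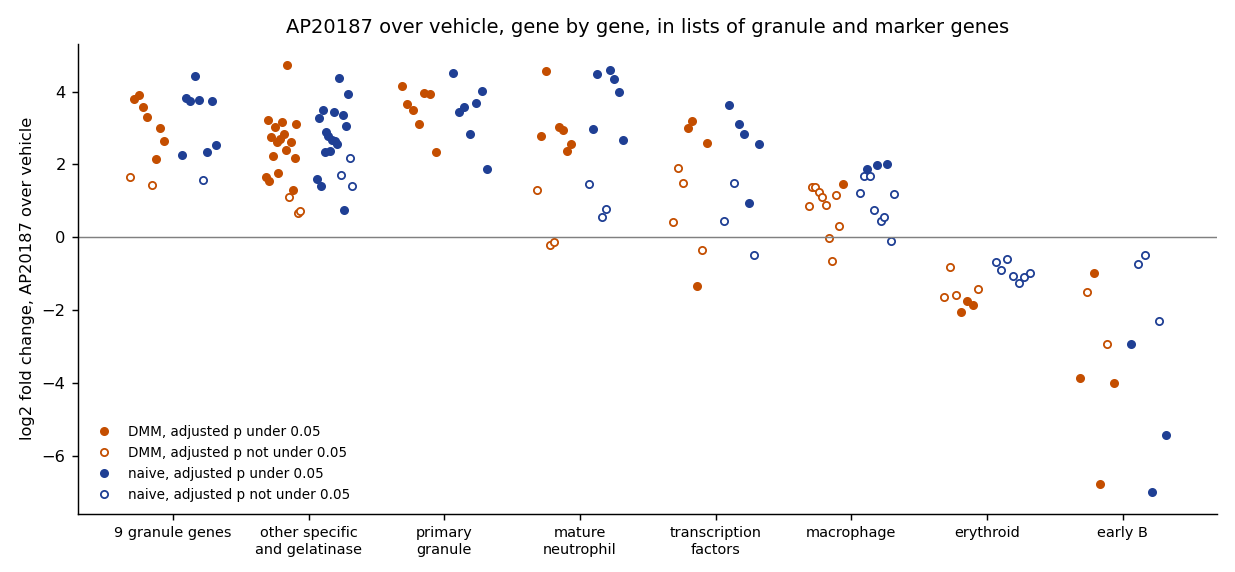
Log2 fold change of AP20187 over vehicle for each gene of 8 lists, in DMM mice (orange) and naive mice (blue), with filled points where the edgeR adjusted p was under 0.05. Genes with 0 counts throughout 1 of the groups are left out; the 9 granule genes, the other specific and gelatinase granule genes and the primary granule genes lie above 0, the macrophage genes lie on both sides of 0, and all erythroid and early B lineage points shown lie below 0.

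The genes whose log2 CPM followed the mean of the 9 most closely over the 19 libraries were looked for among 14533 genes with a mean of at least 1 CPM. They were Itgb2l, an integrin beta 2 relative, the GTPase gene Rac2, the chemokine receptor Cxcr2, the leukocyte integrin subunit Itgb2, the lipoxygenase Alox5, the NADPH oxidase subunits Ncf4 and Ncf1, Hp, the leukotriene receptor Ltb4r1 and the histidine decarboxylase Hdc, with Pearson r of 0.996 to 0.998. For single members, Hp was the nearest to both Ltf (0.996) and Chil3 (0.995), Arhgdib to Ngp (0.996), Arhgap25 to Camp (0.992), Ifitm6 to Lcn2 (0.996), Csf3r to Mmp8 (0.995), Lin28a to Cd177 (0.997), Emilin2 to Mmp9 (0.997) and Itgb2 to Padi4 (0.997). These correlations run over libraries of 4 groups that differ in level, and the differences between groups enter them.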

How the data were processed

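For 19 poly(A) libraries the authors deposited raw counts of 36682 genes as whole numbers, and FPKM, scaled by gene length and depth, beside them. A second deposited table of counts, by gene name, had 56691 entries, of which 6448 carried no name and held 0.414% to 1.72% of a library's counts. It held equal counts for 9 of 9 genes described and was not used further. The submitters' processing notes name cutadapt, HISAT2, StringTie and the build GRCm39, with no version or role; how the counts were made is not given in the sources used here. Positions are those of the table and promoters are from GRCm38.p6, and none was converted. None of the 9 genes overlapped another gene in the table.

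Library totals ran from 60984830 to 74691396 counts. A group at 0 was bounded by a floor of 3 counts per library, which was 0.0445 to 0.0504 CPM as a group mean. This floor covers counting error alone, as no molecular identifiers were reported. Nothing in the labels ties a library to a named animal, so p-values measure the spread between these samples.

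Counts were tested in R 4.3.3 with edgeR 4.0.16 by the quasi-likelihood F test (TMM scaling, filterByExpr with a minimum count of 10, 22778 genes kept, 1 model of the 4 groups, 15 residual degrees of freedom). There were 5 contrasts, all two-sided: AP20187 minus vehicle in DMM and in naive mice, DMM minus naive with vehicle and with AP20187, and the interaction. P-values were Benjamini-Hochberg adjusted over all genes of a contrast at a threshold of 0.05. The script was tested on simulated data. Alternatives were other scaling (RLE, library size only), DESeq2 1.42.0, limma 3.58.1 with voom sample weights, limma on log2(FPKM + 1) and log2(FPKM + 0.1), no filter, only the groups compared, either number series of DMM vehicle, each library left out (for the other lists, chosen after seeing the data), and a replicate block on naive numbers 1, 3, 4 and 5.

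The members and lists were chosen with earlier results of these data known. From each other list at most 4 genes are named, those with the largest change among genes passing in DMM mice, with every gene of lists of up to 6, apart from some not reported here and from the lists of other cells, of which mostly the genes that passed are named; Slpi, Lyz2, Ptx3, Ly6g, Retnlg, Csf3r, Csf3, Mpo and single macrophage genes are named besides, after their values were seen. The labels give no batch.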

Additional observations from a re-analysis of the deposited data

Results flagged for a closer look

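In groups of 4 or 5 libraries, a library was singled out when its gap to the nearest other was large against the range of its group. This happened in 8 of 152 groups of values checked, and chance alone does so in about 1 group in 20. DMM vehicle 64 stood apart for Ly6g (44.6 CPM), Retnlg (454 CPM), Spi1 (76.8 CPM) and Cebpe (32.7 CPM), each time as the highest of its group. Chil4 stood apart in DMM AP20187 62 (15.3 CPM) and in naive vehicle 3 (0.107 CPM). The log2 ratio of Padi4 to the other 8 genes was −3.43 in DMM AP20187 60, the highest of its group, and naive vehicle 2 had 9.61 counts of Camp per 100 counts of Ngp, the lowest of its group.

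Lef1, a gene on the list of granulopoietic transcription factors, differed in its response between the states: the AP20187 effect in DMM mice minus that in naive mice was −2.29 ± 0.36 on the log2 scale (edgeR adjusted p = 0.00888). It was at 0.866 to 1.67 CPM in DMM mice with AP20187, 1.94 to 4.99 CPM with vehicle, 3.67 to 5.01 CPM in naive mice with AP20187 and 2.02 to 2.53 CPM with vehicle.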

How the results depend on the processing

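In DMM mice the number of the 9 genes higher with AP20187 was 7 and ranged from 7 to 9 over the alternatives, except with DMM vehicle 63 and 64 only, where it was 4. In naive mice it was 8 and ranged from 6 to 9. No log2 fold change of a member between AP20187 and vehicle changed sign under any alternative. Surgery with vehicle gave 0 calls, and 6 with DMM vehicle 63 and 64 only, where 541 of 24459 genes were called. With AP20187 surgery gave 0 calls throughout, as did the interaction.

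DMM minus naive with vehicle turned negative for all 9 genes with DMM vehicle 32 to 34 only: Ltf −0.32, Ngp −0.38, Camp −0.40, Lcn2 −0.36, Mmp8 −0.48, Chil3 −0.59, Cd177 −0.23, Mmp9 −0.26 and Padi4 −0.32. It was −0.01 for Mmp8 with voom, and leaving out each library gave −0.07 to 1.08 for Chil3. DMM minus naive with AP20187 ranged from −0.02 to 0.50 for Ngp and from −0.05 to 0.44 for Lcn2 when each library was left out.

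The sign of the interaction depended on the setting, and the cause was not tested. With voom it was Ltf 0.42, Ngp 0.29, Camp 0.77, Lcn2 0.21, Mmp8 0.71, Cd177 0.63 and Mmp9 0.72. On log2(FPKM + 1) it was Ltf 0.33, Ngp 0.13, Camp 0.50, Lcn2 0.03, Mmp8 0.57, Cd177 0.63 and Mmp9 0.59, and on log2(FPKM + 0.1) Ltf 0.33, Ngp 0.13, Camp 0.50, Lcn2 0.04, Mmp8 0.59, Cd177 0.63 and Mmp9 0.60. With DMM vehicle 63 and 64 only, Chil3 was −0.82 and Padi4 −0.82. With DMM vehicle 32 to 34 only it was Ltf 0.84, Ngp 0.61, Camp 1.16, Lcn2 0.55, Mmp8 1.10, Cd177 1.13 and Mmp9 1.01. Leaving out each library gave ranges of −0.82 to 0.41 for Ltf, −1.04 to 0.12 for Ngp, −0.91 to 0.47 for Camp, −1.13 to 0.09 for Lcn2, −0.44 to 0.60 for Mmp8, −0.22 to 0.93 for Chil3, −0.37 to 0.72 for Cd177, −0.50 to 0.66 for Mmp9 and −0.18 to 0.91 for Padi4.

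Camp and Mmp8 in DMM mice passed with DESeq2, voom, FPKM, DMM vehicle 32 to 34 only and without DMM vehicle 64. The naive call of Camp was lost with no filter and on both FPKM scales. Over all genes, AP20187 calls in DMM mice numbered 5410, but 1156 with DMM vehicle 63 and 64 only, 8450 with 32 to 34 only, 10676 with voom, and 3212, 3419 and 3407 without DMM AP20187 58, DMM vehicle 32 or DMM vehicle 33. In naive mice they numbered 2548, of which 1962 were higher. DESeq2 gave 2765 higher of 4367, voom 3122 of 4542, the FPKM scales 1625 of 4147 and 1672 of 4225, and library size only 1550 of 2465. Without naive AP20187 1 or 3 they numbered 1191 and 994, and without naive vehicle 1, 2 or 5, 1368, 1292 and 1566. DMM minus naive with AP20187 gave 160 calls, 43 to 269 with each library left out, 1143 with DESeq2, 2456 with voom and 1220 and 1011 on the FPKM scales. The interaction gave 26, 12 to 57 with each library left out and 237 with DESeq2.

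The naive groups share only numbers: same-numbered libraries deviated together with correlations of 0.02, 0.30, −0.08 and 0.18. With the replicate block 9 of 9 genes passed, as without it on the same 8 libraries (an alternative added after seeing the data), and calls over all genes were 2352 with the block and 1388 without.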
